A study of Mus musculus with 7 samples.

Results

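Loss of Uhrf1 was examined in mouse embryonic stem cells by comparing Uhrf1-/- cells with wild-type cells at every cytosine site of the deposited table that holds both genotypes. All 18189 sites of that table were used, and 4 of the 7 samples of the series: wild type samples 1 and 2 and Uhrf1-/- samples 1 and 2. Both genotypes are J1 embryonic stem cells kept on gelatin in medium with serum and leukemia inhibitory factor. The other samples carried a human UHRF1 rescue or a Mof knockdown and are not described here. The labels give no method for the Uhrf1 deletion and do not say whether both Uhrf1-/- samples came from a single clone. Nor is it stated that the samples of a genotype were grown separately, so every p-value reflects the variation among libraries alone, and that variation may be technical. No site lay within 10 kb of the Uhrf1 start and no RNA was measured, so the deletion itself was not checked here.

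Methylation of CpG dinucleotides has to be copied onto the new DNA strand at each replication. UHRF1 recognises the hemimethylated CpG that replication leaves behind and recruits DNMT1, the methyltransferase that restores the missing mark. The de novo enzymes DNMT3A and DNMT3B can add methylation without a template and are active in embryonic stem cells grown in serum. Reduced representation bisulfite sequencing reads such sites in restriction fragments rich in CpG, and the share of reads that keep a cytosine after conversion is the methylation level of the site.

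A few promoter stretches show what the sites look like. RefSeq promoter windows (build GRCm38.p6, 250 bases before to 50 bases after a start) held 559 of the sites, and all 559 read CG in the reference. Measured CG sites stand in capitals, every sequence is written 5′ to 3′ on the strand of its gene, and unmeasured CG are in lower case. The first lies at chr11:116454298-116454597 on the minus strand, the second at chr2:24386366-24386665 on the plus strand, the third at chr13:54399384-54399683 on the minus strand and the fourth at chr15:85131908-85132207 on the minus strand. The first 3 were methylated in wild type, and the fourth, from a meiotic cohesin gene, was not.
Qrich2: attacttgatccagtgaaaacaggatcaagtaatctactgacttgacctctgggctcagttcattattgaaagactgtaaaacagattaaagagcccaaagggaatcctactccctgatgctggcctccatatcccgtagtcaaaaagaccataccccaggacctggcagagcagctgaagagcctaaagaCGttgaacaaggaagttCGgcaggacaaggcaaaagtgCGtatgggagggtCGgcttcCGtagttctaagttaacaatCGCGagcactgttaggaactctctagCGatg
Psd4: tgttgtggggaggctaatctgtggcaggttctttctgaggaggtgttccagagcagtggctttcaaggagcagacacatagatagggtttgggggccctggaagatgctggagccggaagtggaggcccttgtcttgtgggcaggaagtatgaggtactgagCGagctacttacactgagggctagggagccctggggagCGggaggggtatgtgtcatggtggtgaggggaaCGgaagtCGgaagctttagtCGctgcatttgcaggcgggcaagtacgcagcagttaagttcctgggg
LOC115488208: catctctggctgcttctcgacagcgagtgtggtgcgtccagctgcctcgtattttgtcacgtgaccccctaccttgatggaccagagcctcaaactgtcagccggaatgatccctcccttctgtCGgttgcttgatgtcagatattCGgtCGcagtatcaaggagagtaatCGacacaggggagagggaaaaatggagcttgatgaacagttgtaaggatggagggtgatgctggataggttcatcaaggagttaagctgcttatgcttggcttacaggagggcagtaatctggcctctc
Smc1b: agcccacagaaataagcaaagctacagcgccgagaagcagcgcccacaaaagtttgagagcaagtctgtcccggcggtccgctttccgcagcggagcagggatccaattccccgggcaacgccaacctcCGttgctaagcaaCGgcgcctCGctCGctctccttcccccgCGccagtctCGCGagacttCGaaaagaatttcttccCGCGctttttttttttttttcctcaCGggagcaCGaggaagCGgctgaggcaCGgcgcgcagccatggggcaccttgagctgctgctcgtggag
The Qrich2 window had 8 measured of 9 CG, with 19 or more reads each, and averaged 41.9% and 63.7% in wild type samples 1 and 2 against 5.81% and 11.3% in Uhrf1-/- samples 1 and 2. Its site 21 bases before the start went from 50% and 80% to 0% and 8%. Its neighbour 42 bases before the start read 16.7% and 60% in wild type and 23.1% and 22.2% in Uhrf1-/-, on 20 to 27 reads. The genotypes overlapped at that neighbour, so no kept share can be read there. These single sites were not tested. The Psd4 window (5 of 8 CG measured) went from 50% and 73.4% to 6.04% and 0%, and the LOC115488208 window (4 of 10) from 92.9% and 95.3% to 11.7% and 28.9%. In these 3 windows both Uhrf1-/- samples lay below both wild-type samples. The Smc1b window had 14 of its 29 CG measured, each on 5 or more reads, and every read was unmethylated in all 4 samples. For the 7 of these sites assigned to Smc1b, 42, 42, 55 and 96 reads allow up to 7.14%, 7.14%, 5.45% and 3.12% (3 counts of the total, counting error only).

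The motif CG, which reads the same on both strands, occurred in 94.6% of all 32851 RefSeq promoter windows of this length, with a median of 7 per window. Among the 97 windows with 3 or more measured sites, 84 were under 10% in wild type and held a median of 20 CG. Only 5 were over 50%, and they held 7 to 10 CG. The 84 sparsely methylated windows had a median of 0% in Uhrf1-/- and a highest value of 14.4%.

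The table lists 18150 nuclear and 39 mitochondrial sites, each with at least 5 reads in every library. Reads over all sites came to 257860 and 445233 in wild type and to 615917 and 531050 in Uhrf1-/-, at a median of 10 and 16 reads per site against 14 and 11. Depth was uneven: 243 sites with 500 reads or more in a library, in 6 short clusters, took 10.2% and 13.8% of the wild-type reads but 51.05% and 53.3% of the Uhrf1-/- reads. Values below are therefore unweighted means over sites unless pooled reads are named. The 39 mitochondrial sites, used as a background measured in the same way, read 0.826% and 0.623% methylated in wild type and 0.792% and 1.02% in Uhrf1-/- (pooled reads).

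Methylation in Uhrf1-/- was about 1 in 5 of its wild-type level across the genome. The site mean was 48.3% and 50.02% in wild type samples 1 and 2 and 9.36% and 9.82% in Uhrf1-/- samples 1 and 2. The genotypes did not overlap, and the difference of -39.6 points was far larger than the spread within either (SD 1.25 and 0.326, n = 2 each), though an exact permutation test of 2 against 2 cannot go below p = 0.33. The share of the wild-type level that was kept, which is the mean of a Uhrf1-/- library over the mean of the wild-type libraries, was 19.04% and 19.98%, or 19.5% ± 0.663 (SD, n = 2), and 18.7% to 20.3% over the 4 pairs of libraries. Subtracting each library's mitochondrial level lowered it to 17.9%. Pooling reads gave 14.7%, and 18.7% once the sites with 500 reads or more were left out.

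Single sites went down far more often than up. By the quasi-likelihood test of edgeR, run on read counts of both states, 1492 of 3917 tested sites (38.1%) fell by 20 points or more at an adjusted p under 0.05, and 0 rose. Before adjustment, 2007 sites were lower and 15 higher at p under 0.05 by edgeR, and the numbers called higher by limma and DESeq2 were 3 and 0. With a single library in a group the same test called 34 and 28 sites (without wild type sample 1 or 2) and 2 and 0 (without Uhrf1-/- sample 1 or 2), while unadjusted p under 0.05 still marked 1349 to 1554 lower sites.

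Of 8692 sites at 50% or more in both wild-type libraries, 40.6% and 41.2% had no methylated read left in Uhrf1-/- samples 1 and 2, and 21.9% had none in either. Few stayed high: 4.49% and 5.13% were over 50%, and 74 sites were over 50% in both. Most sites that read high in a single sample were lower in the other. The 570 sites at 50% or more in Uhrf1-/- sample 1 averaged 29.5% in sample 2, and the 637 found in sample 2 averaged 28.4% in sample 1. Sites at 0% in sample 1 averaged 11.1% in sample 2, so the samples shared part of their order across sites. With 20 or more reads in each library 117 such sites remained, of which 7.69% were at 0% in both Uhrf1-/- samples and 0 were over 50% in both.

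Promoters, taken as sites within 1 kb of a transcript start listed by the authors, were lower in Uhrf1-/- where they were methylated in wild type. Among 236 tested promoters with 3 or more sites of 10 reads, 64 fell (27.1%) and 0 rose by edgeR, and at an unadjusted p under 0.05 the numbers were 85 and 0. The fall count was 10 and 16 without wild type sample 1 or 2, and 49 and 62 without Uhrf1-/- sample 1 or 2. Of 47 promoters at 50% or more in each wild-type library, all 47 were lower in both Uhrf1-/- libraries than in both wild-type libraries and 42 passed the test. Their kept share had a median of 16.5%, quartiles of 7.99% and 20.9%, and a range from 0% to 51.4%. The 47 were chosen on the wild-type levels they are compared with, which favours a fall and a low kept share. Gene names were given to 5167 of the 6083 listed starts, most of which lay inside the gene and not at its RefSeq start. For 1496 of the named starts the strand was not compared with that of the gene. Among the genes named below, these include Gm45750, Galnt12, Gm11625, Dera, Cblc, H19, Peg10, Col1a1 and Gata4.

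The 10 largest falls among promoters ran from -75.6 to -90.5 points. Gip, which encodes an incretin hormone of the gut, went from 90.4% and 86.4% to 5.72% and 5.00% over 4 sites 104 to 163 bases upstream of the listed start (edgeR adjusted p = 1.45e-05). Myo15, an unconventional myosin of inner ear hair cells, went from 87.4% and 86.4% to 0.877% and 9.74% over 6 sites. Strc, which encodes stereocilin of the same cells, went from 88.6% and 83.9% to 9.24% and 7.89% over 7 sites. Myo1h, another unconventional myosin, went from 88.5% and 88.4% to 4.60% and 0%. Cacna1d, a subunit of L-type calcium channels, went from 95.6% and 86.3% to 19.05% and 4.76%. In each of these 5 the genotypes were more than 60 points apart, with no overlap. The others were 1700041B01Rik, Gm45750, Galnt12, Gm12263 and Gm5099, and the edgeR adjusted p of the 10 ranged from 8.86e-06 to 0.0260. Gm45750 had the widest split between Uhrf1-/- samples, 0% and 32.1%.

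**Figure D1:**
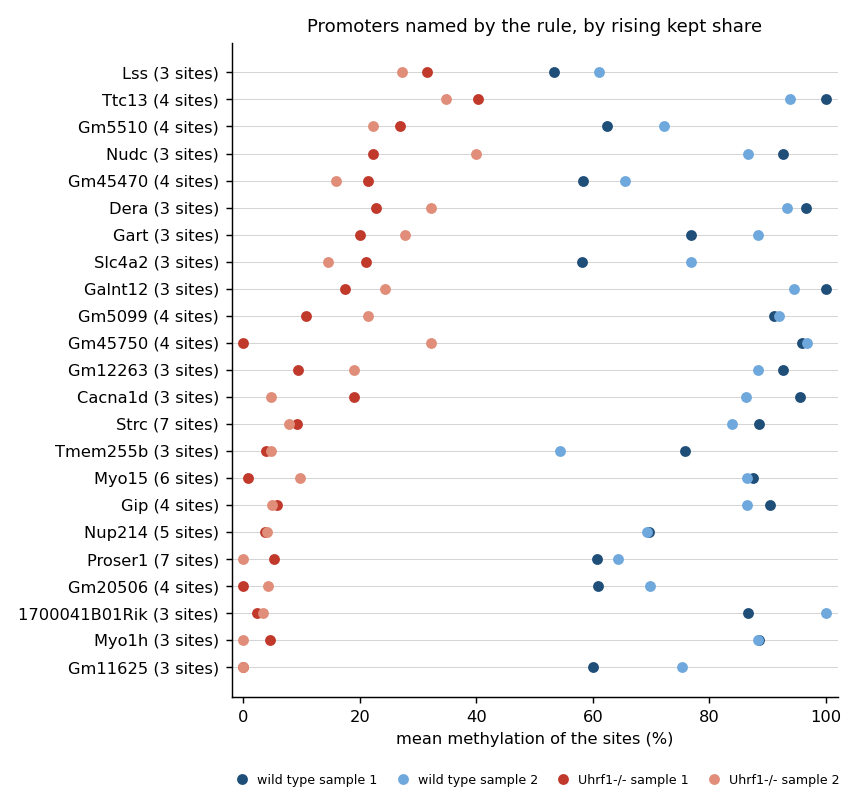
Mean methylation (%, horizontal axis) of the 23 promoters named by the rule, with the number of sites in brackets, ordered by kept share. Each point is a library, blue for wild type and red for Uhrf1-/-. The red points lie to the left of the blue points on every line, from 0% at Gm11625 to between 27.3% and 31.5% at Lss.

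Promoters kept unequal shares, and the plot of promoter levels by library shows both ends. At the high end, Lss, the lanosterol synthase of cholesterol synthesis, read 53.3% and 61.1% in wild type and 31.5% and 27.3% in Uhrf1-/-, and kept 51.4%. Its difference of -27.8 points missed the threshold (edgeR adjusted p = 0.327). Ttc13 kept 38.8%, from 100% and 93.8% to 40.3% and 34.8% (adjusted p = 0.00363, edgeR). Dera, a deoxyribose-phosphate aldolase, went from 96.5% and 93.3% to 22.7% and 32.2%. Slc4a2, an anion exchanger, went from 58.1% and 76.8% to 21.1% and 14.5%. Nudc, Gart, Gm5510 and Gm45470 kept 28.9% to 36.5% and did not pass the test. At the low end, Gm11625 fell from 60.1% and 75.3% to 0% in both Uhrf1-/- samples, where 0 of 80 and 0 of 66 reads allow up to 3.75% and 4.55%. Nup214, a nuclear pore protein, went from 69.7% and 69.3% to 3.64% and 4% over 5 sites. Proser1 went from 60.7% and 64.3% to 5.26% and 0% over 7 sites. Gm20506 and Tmem255b also kept under 7%. These ends are taken from the extremes of 47 promoters, and the kept share was not tested between promoters. Of the 18 named promoters that passed, 13 also passed with the sample number as a block and 4 passed in all 4 fits that left out a library, with adjusted p up to 0.372.

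Within 10 kb of a start, 262 of 490 gene neighbourhoods with 3 or more sites fell by edgeR (53.5%) and 0 rose, also at an unadjusted p under 0.05. All 177 neighbourhoods at 50% or more in wild type were lower in both Uhrf1-/- libraries, 173 of them past the test, at a median kept share of 16.7% and quartiles of 9.56% and 24.1%. The 177 too were chosen on the wild-type levels they are compared with. Among the lowest, Exoc3, a subunit of the exocyst, went from 66.2% and 60.6% to 0% and 0% over 3 sites 8171 to 8197 bases downstream of a listed start inside the gene, where 41 and 51 reads allow up to 7.32% and 5.88%. Celf6, an RNA-binding protein, went from 71.4% and 78.6% to 2.08% and 0%, and Pigv, an enzyme of glycolipid anchor synthesis, from 87.2% and 95.2% to 0% and 4.17%. Cblc and Platr30 kept 1.65% and 4.29%. Among the highest, Erbin, a scaffold protein that binds ERBB2, went from 90.9% and 78.2% to 23.7% and 46.9%. Flii, an actin-binding protein, went from 93.5% and 87.9% to 36.9% and 27.5%. Cryzl1 went from 94.4% and 90.8% to 30.1% and 28.8%, with both Uhrf1-/- samples within 2 points of each other. Gm31816 and Gm13148 kept 36.1% and 31.8% and did not pass the test. Of the 13 named neighbourhoods that passed, 11 passed in all 4 fits that left out a library.

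Gene lists were read at all promoters with any number of sites, where 382 of 1294 fell (29.5%) with a median difference of -8.32 points, and at all neighbourhoods, where 1853 of 3585 fell (51.7%) with a median of -42.2 points. Of 30 germline genes, many of which are silenced by promoter methylation in somatic cells, 5 had promoter sites, 4 could be tested and 3 fell, with a median difference of -31.0 points over the 5. Sycp1, the transverse filament of the synaptonemal complex, went from 65.7% and 67.4% to 0% and 3.33% (edgeR adjusted p = 0.00239). Meioc, a regulator of meiosis, went from 62.6% and 62.7% to 15.0% and 11.2%. Hormad2, a meiotic chromosome axis protein, went from 32.9% and 33.8% to 3.39% and 1.39% over 9 sites around the listed start. At all 3 the wild-type libraries lay within 2 points of each other and far above both Uhrf1-/- libraries. Smc1b read 0% in every sample and Tdrd1 had a single site at 0%, 0%, 0% and 14.3%. In the neighbourhoods, Mov10l1, a helicase of the piRNA pathway, and Tuba3a, a testis tubulin, fell as well, from 100% and 100% to 0% and 0% at a single site of at most 15 reads and from 95% and 93.3% to 14.98% and 0% over 5 sites.

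Of 24 imprinted genes, 4 had promoter sites, 3 could be tested and 1 fell, with a median difference of -16.7 points. H19, a maternally expressed non-coding RNA, went from 70.8% and 55.6% to 12.9% and 3.12% over 4 sites within 744 bases of the listed start (edgeR adjusted p = 0.0152). Mest read 44.4% and 57.1% against 11.1% and 23.8% on 3 sites and did not pass. Gnas and Inpp5f read 0% in all samples. Within 10 kb, Grb10 went from 100% and 82.5% to 5.32% and 14.6%, and Peg10 from 88.7% and 79.2% to 18.3% and 10%, both past the test. The 4 Grb10 sites were exon and intron sites by separate listed starts, spread over chr11:11931455-11972466. The 4 Peg10 sites lay in an exon, 8441 to 8489 bases from a listed start. Neither set was annotated as promoter. Alleles were not separated, so a level near 50% and a mix of alleles cannot be told apart.

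Most lineage factor promoters had little methylation in wild type. Of 18 such genes 5 were measured and tested and 0 fell, at a median of 0.940% in wild type. Hoxa9, a homeobox gene, read 33.3% and 33.3% against 0% and 0% at a single site. Lhx2, Olig2, Neurog1 and Pax7 were under 3% in every sample. Of 12 pluripotency genes only Nr5a2 and Sox2 had promoter sites, at 6.25% or less, and 0 fell. Gata4, with 6 sites within 10 kb of a listed start inside the gene, read 9.52% and 27.8% against 0% and 0%, under the 20 points a call needs. Of the 17 genes of the methylation machinery only Setdb1, a histone H3 lysine 9 methyltransferase, had a site within 10 kb, which went from 100% and 60% to 0% and 0% on 6 or more reads. Markers of other cell types that the dishes could hold were sparse: Col1a1 and Col3a1 of 6 fibroblast genes, Gata4 of 4 primitive endoderm genes and no trophoblast gene were measured. Col1a1 went from 91.7% and 86.2% to 3.89% and 14.6% and Col3a1 from 0% and 44.4% to 0% and 75% at a single site, and the part of other cells in any result was not tested. Housekeeping and 2-cell stage genes had no site. Every call among the list members named here was lost without Uhrf1-/- sample 1 and also without sample 2. The promoter calls of Hormad2, Meioc and H19 were lost without a wild-type sample as well.

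Most 1-Mb windows lost methylation, and the share they kept varied. Of 1034 tested windows with 5 or more sites, 877 fell by 20 points or more (84.8%, edgeR) and 0 rose by as much, while 2 were higher by less at an adjusted p under 0.05. Both Uhrf1-/- libraries lay below both wild-type libraries in 998 of the 1038 windows. The 157 windows that did not pass had a median of 15.8% in wild type, against 58.2% for those that passed, and 105 of them were under 20%. In 316 windows with 10 or more sites at 50% or more in wild type, the kept share had a median of 19.01%, and 5% and 95% quantiles of 10.4% and 30.3%. The same wild-type libraries chose these windows and gave their wild-type level. The Uhrf1-/- samples gave values 5.65 points apart at the median window, and r between them was 0.275 over the 316 windows, which share libraries and depth, so much of the spread was not shared by the 2 samples.

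**Figure D2:**
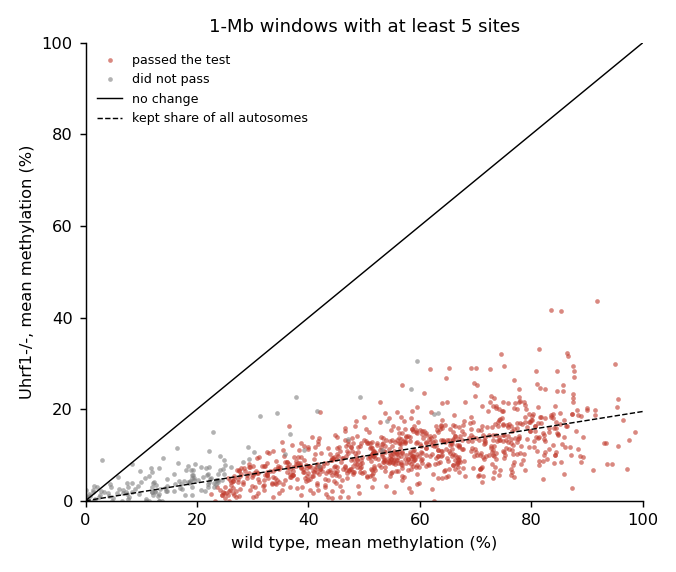
Mean methylation of 1-Mb windows in wild type (horizontal axis, %) and in Uhrf1-/- (vertical axis, %), each point a window averaged over 2 libraries. Windows that passed the edgeR test are red and the others grey; nearly all red points lie near the dashed line of the autosomal kept share, 19.5%, and far below the solid line of no change.

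Whether a window kept more or less than the genome was tested directly, with the genome-wide loss of each library as an offset. Of 1030 windows 1 departed (0.0971%), and before adjustment 88 kept less and 75 more at p under 0.05. That window, chr9:35000001-36000000 with 10 sites, had site means of 85.9% and 86.3% in wild type and 6.51% and 17.2% in Uhrf1-/-. By site means it kept 7.56% and 19.96%, the second close to the 19.98% of all sites in that sample. The test sums reads, and 5 deep sites held 6530 of its 6756 and 9670 of its 9919 reads in Uhrf1-/- samples 1 and 2. On those summed reads its log2 ratio to the genome was -1.25 (edgeR adjusted p = 0.0230). It passed in none of the 4 fits without a library, where the adjusted p was 0.162 to 0.353. With the offset weighted by the wild-type level of each site, 9 windows were lower and 10 higher. The windows named next were part of the departure test and did not pass it. They come from the ends of the range among the 316 windows with 10 or more sites at 50% or more in wild type. The lowest of these, on chromosome 4 at 63000001-64000000 by Akna, went from 82.3% and 81.8% to 1.30% and 8.26%. The highest of these, on chromosome 2 at 93000001-94000000 by Tspan18 and Prdm11, went from 61.7% and 67.9% to 25.4% and 28.1%, and a window on chromosome 17 at 78000001-79000000 by Crim1 and Ndufaf7 from 84.9% and 87.8% to 34.2% and 30.4%. In the last 2 the Uhrf1-/- samples differed by under 4 points.

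Over all sites, those far from a transcript start kept a slightly larger share than those near it. The size of the difference depended on how low-level signal was treated, and at 10 reads or more the samples shared no direction. Wild-type methylation climbed from 18.3% within 200 bases of a start to 66.8% between 20000 and 100000 bases, and Uhrf1-/- methylation from 3.44% to 13.5%. As deposited, the kept share was 18.8%, 19.1%, 18.9%, 19.9%, 20.3% and 19.03% from the nearest to the farthest bin, and sites over 5000 bases away kept 0.967 ± 0.584 points (SD, n = 2) more than sites within 1000 bases. With 10 or more reads in each library the difference was 0.176 points. With each library's mitochondrial level subtracted, the nearest sites kept 14.4% ± 0.704 and those at 20000 to 100000 bases 19.1% ± 0.0368 (SD, n = 2). The difference between far and near then became 3.12 points, 3.24 in Uhrf1-/- sample 1 and 2.99 in sample 2. Pooled reads gave a larger and less even share in the nearest bin, 23.1% and 31.3%. The subtraction was chosen after the data were seen, and it assumes that nuclear and mitochondrial DNA share a background.

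The same order appeared without any subtraction among sites that were methylated. Sites at 50% or more in wild type sample 1, measured against wild type sample 2, kept 16.5%, 17.0%, 18.1%, 19.2%, 19.9% and 18.8% over the 6 bins. Chosen on sample 2 and measured against sample 1 they kept 16.7%, 17.4%, 18.4%, 19.8%, 19.9% and 18.9%. Far sites kept 2.601 and 2.57 points more than near sites in these sets. At a matched wild-type level the difference was 6.21 points for sites of 40 to 60%, 2.37 for 60 to 80% and 2.34 for 80 to 100%. Here the same libraries set the level and the kept share. Within 80 to 100% in wild type, Uhrf1-/- levels were 14.9% and 15.2% in the nearest bin and 17.8% and 18.5% at 20000 to 100000 bases, with no overlap. The bin beyond 100000 bases had 351 sites and its Uhrf1-/- samples kept 17.2% and 20.9% as deposited, so it could not be placed. As deposited, the first 200 bases downstream kept 16.7% ± 0.319 and the 200 bases upstream 20.8% ± 0.699 (SD, n = 2), with no overlap between samples. The other bins from 20000 bases upstream to 20000 bases downstream kept 17.8% to 20.4%.

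**Figure D3:**
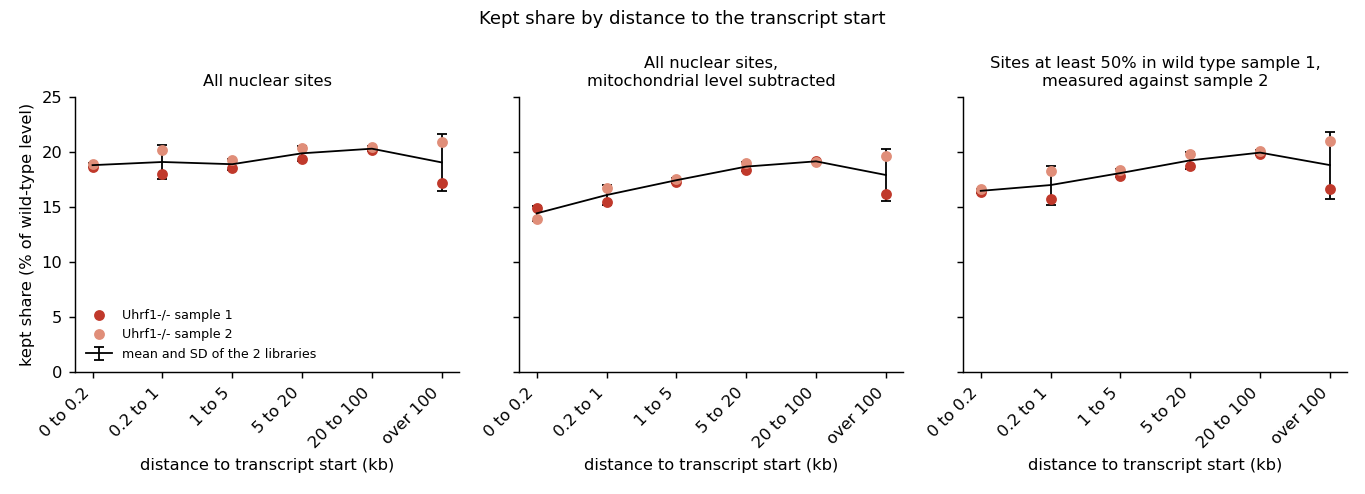
Kept share (vertical axis, % of the wild-type level) by distance to the transcript start (horizontal axis, kb), as deposited, with the mitochondrial level subtracted, and for sites methylated in wild type sample 1. Red points are the 2 Uhrf1-/- libraries and the line and bars their mean and SD; the line is nearly flat in the first panel and climbs from 14.4% to 19.1% and from 16.5% to 19.9% in the others before the last bin.

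The share kept was not even across wild-type levels, and was larger at both ends than in the middle. When sites were binned on wild type sample 1 and measured against sample 2, those at 0% kept 32.9%, those above 0 and up to 20% 24.3%, and those at 20 to 40%, 40 to 60%, 60 to 80%, 80 to 100% and exactly 100% kept 16.1%, 16.4%, 16.8%, 17.8% and 20.4% ± 0.891 (SD, n = 2). Binned on sample 2 and measured against sample 1, the same classes kept 49.6%, 30.4%, 19.9%, 16.6%, 17.5%, 18.99% and 20.9% ± 0.953 (SD, n = 2). No background was subtracted from these shares, and the levels behind the first class are low. Sites without a methylated read in a wild-type library were lower in Uhrf1-/- than in the other wild-type library: the 5772 at 0% in wild type sample 1 averaged 6.92% in wild type sample 2 but 2.22% and 2.33% in Uhrf1-/-, and the 5214 at 0% in sample 2 averaged 3.54% in sample 1 but 1.69% and 1.83% in Uhrf1-/-.

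No chromosome escaped, and differences between chromosomes were about as large as those between libraries. The 19 autosomes kept from 18.4% (chromosome 7) to 21.96% (chromosome 17), with an SD of 0.917 over chromosomes, while the Uhrf1-/- samples differed by 1.13 points at the median chromosome and by up to 3.71. The autosomal kept share was exceeded in both samples by 6 autosomes (1, 8, 14, 16, 17 and 18) and undercut in both by 6 (3, 5, 7, 12, 13 and 19), and r between the samples over the 19 was 0.195. Chromosome 17 kept 21.01% and 22.9%, from the lowest wild-type level of any autosome, 36.6%, with 52.9% of its sites within 1 kb of a start. Without sites of 500 reads or more it kept 21.6%. The X chromosome kept 22.4% and 21.2% on 99 sites. Wild-type and Uhrf1-/- levels of the autosomes moved together (r = 0.883, n = 19, the same libraries).

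**Figure D4:**
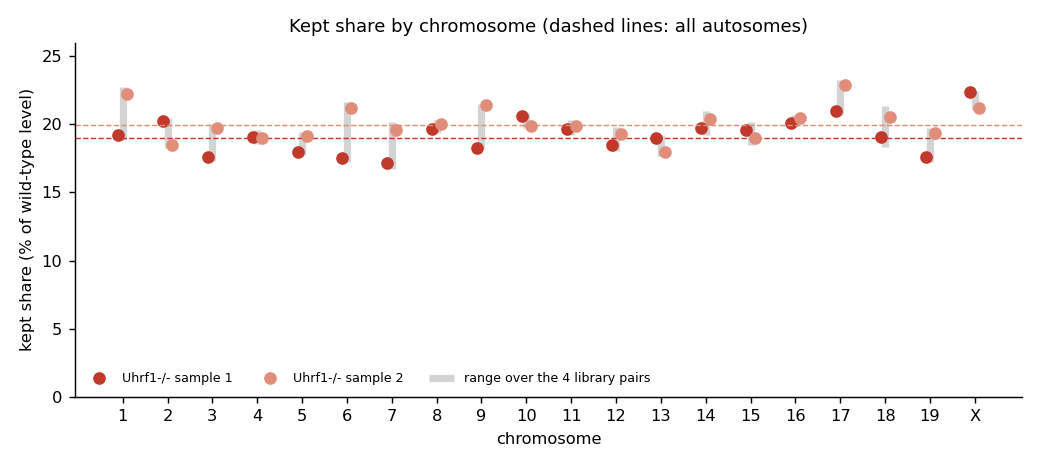
Kept share (vertical axis, % of the wild-type level) for each autosome and X (horizontal axis), with the Uhrf1-/- libraries as points, the range over the 4 pairs of libraries as grey bars and the autosomal share of each library as dashed lines. All points lie between 17.2% and 22.9%.

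Levels of neighbouring sites were closely correlated in wild type, and less so in Uhrf1-/-. Over 3004 pairs of sites 2 to 10 bases apart, r across pairs was 0.828 and 0.857 in wild type samples 1 and 2 and 0.497 and 0.503 in Uhrf1-/- samples 1 and 2. At 11 to 50 bases (5940 pairs) it averaged 0.738 in wild type and 0.332 in Uhrf1-/-, at 51 to 200 bases (2747 pairs) 0.441 and 0.143, and over 10000 bases (5718 pairs) 0.0198 and 0.00904. These correlations are descriptions: neighbours within a library share reads, and nearly all of the closest pairs lay on the same strand. The mean absolute difference between the closest neighbours was the smaller in Uhrf1-/-, 7.77 points against 12.3 in wild type. Levels at these sites were also less spread in Uhrf1-/- (SD 14.9 points against 42.0). A narrower range by itself lowers both measures, so neither alone compares the agreement of the genotypes. Reading the neighbour in the other library of the same genotype removes shared reads. In wild type this left r at 0.813 for the closest pairs, or 96.5% of the value within a library. In Uhrf1-/- it left 0.315, or 63.0%. Over the sites of these pairs, the same site read in both libraries gave r = 0.875 in wild type but 0.431 in Uhrf1-/-. Single sites thus repeated less well between the Uhrf1-/- libraries, and the 63.0% cannot be assigned to neighbours alone.

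Pairs methylated at both sites were chosen on the wild-type levels themselves, which narrows the range of those levels and by itself lowers wild-type r, so the genotypes cannot be compared by r within this set. Among the 1206 closest pairs with both sites at 50% or more in wild type, r within a library was 0.346 in wild type and 0.389 in Uhrf1-/-, and across libraries 0.120 and 0.128. With 10 or more reads at both sites (272 pairs) the values within a library were 0.432 and 0.296. Over the 1206 pairs the same site read in both Uhrf1-/- libraries gave r = 0.286. In 44.4% and 42.9% of these pairs both sites had methylated reads in the Uhrf1-/- samples, where the product of the single-site shares is 37.1% and 35.3%. The excess shrank to 39.7% against 34.0% at 11 to 50 bases in sample 1 and was 33.3% against 33.0% beyond 10000 bases.

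**Figure D5:**
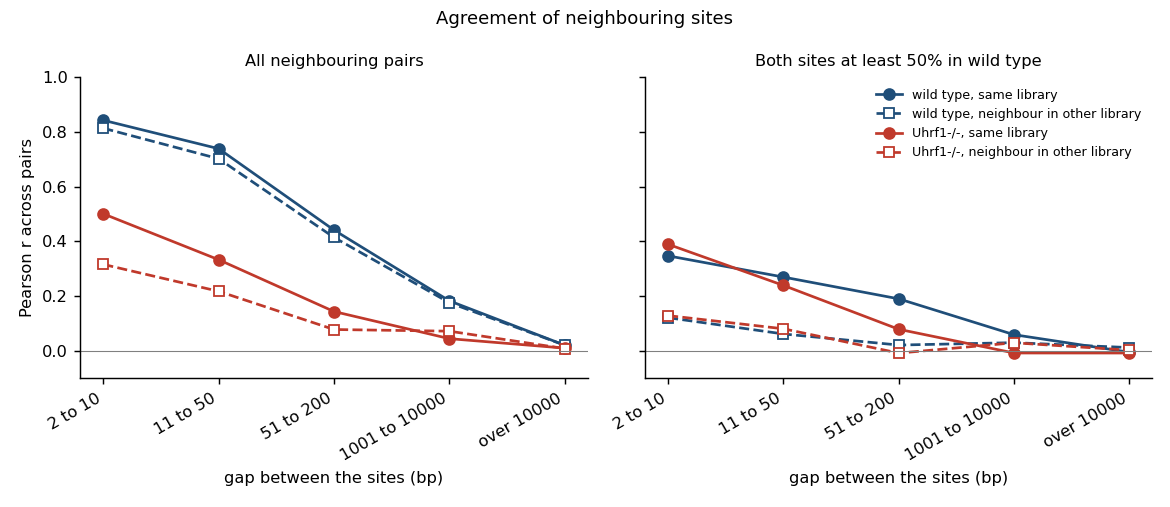
Pearson r across pairs of neighbouring sites (vertical axis) by the gap between them (horizontal axis, bp), for all pairs and for pairs with both sites at 50% or more in wild type. Filled points take both sites from a single library and open points take the neighbour from the other library of the genotype; for all pairs, wild type (blue) starts at 0.842 and Uhrf1-/- (red) at 0.5001.

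Sites among sparsely methylated neighbours kept the least. For sites at 60% or more in wild type sample 1 with at least 2 other sites within 100 bases, measured against wild type sample 2, the kept share was 16.3% ± 0.710 where those neighbours averaged under 40% (303 sites) and 19.4% ± 0.878 where they averaged 80% or more (2581 sites; SD, n = 2 each). Chosen on sample 2 and measured against sample 1 the shares were 16.5% ± 1.00 and 19.6% ± 0.897 (SD, n = 2). Both Uhrf1-/- samples had this order, but the steps between were not even, since neighbours at 40 to 60% went with 18.3% and neighbours at 60 to 80% with 17.4%. The sites' own level also differed, 70.3% against 85.7% in wild type sample 2 and 59.3% against 84.0% in sample 1. Own level and neighbours' level were thus not separated in these sets. When the same libraries chose the sites and gave the wild-type level, the contrast in kept share was wider, 14.8% against 19.2% for sites at 80% or more. Crowding went the other way in this set: sites at 60% or more with no other listed site within 100 bases kept 19.8% ± 0.194, and those with 6 to 10 kept 17.4% ± 0.265 (SD, n = 2; chosen on sample 1, measured against sample 2). Over all nuclear sites there was no such order: those with 0, 3 to 5, and 11 or more others kept 20.7%, 18.7% and 23.7%. Their wild-type levels were 54.9%, 47.8% and 6.24%. Crowding was not separated from distance to a start.

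The 6 clusters of very deep sites had the smallest counting error in Uhrf1-/-. They were picked by depth, after the depths were seen, and the number of genomic copies behind a listed position was not measured. On chromosome 2 at 98662265-98667255, 46 sites went from 72.5% and 77.8% to 9.50% and 9.35%, on 89211 and 117923 reads in Uhrf1-/-, and kept 12.6% and 12.4%. On chromosome 12 at 3109911-3110026, 3 sites kept 10.04% and 8.59%, and 5 sites on chromosome 9 at 35305418-35305534 by Gm33838 kept 7.74% and 8.54%. These 3 methylated clusters therefore kept less than the 19.04% and 19.98% of all sites, in both samples. The largest cluster, 211 sites on chromosome 17 at 39843311-39848710 next to Rn18s-rs5, a relative of 18S ribosomal RNA, was barely methylated in either genotype (4.06% and 1.11% against 1.19% and 1.21%), and so were 16 sites on chromosome 6 by Gm2651 (5.23% and 3.73% against 1.15% and 1.40%). The 7 sites by Filip1l on chromosome 16 read 38.6% and 0% in wild type, too far apart to compare.

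Depth in the chromosome 2 cluster allowed the strands of a CpG to be read apart. Both cytosines were listed at 5 CpG. In Uhrf1-/- their plus-strand cytosines averaged 6.90% and 6.95% and their minus-strand cytosines 18.6% and 18.8%, 2.70 and 2.71 times as much, and the minus strand was higher at all 5 in both samples. At the CpG of positions 98667149 and 98667150, for example, the plus strand read 9.15% (95% Wilson interval 8.45 to 9.90%) and the minus strand 28.2% (26.5 to 30.002%) in Uhrf1-/- sample 1, and 8.69% and 27.4% in sample 2, on 2472 to 8560 reads. Intervals cover counting error only. In wild type the strands averaged 80.6% and 84.9% in sample 1 and 83.4% and 91.2% in sample 2, on 7 to 36 minus-strand reads each, with the minus strand higher at 4 and 3 of the 5. Of 78 CpG read on both strands elsewhere, the minus strand was higher at 45 and 35 and the plus strand at 29 and 39 in Uhrf1-/- samples 1 and 2, so the count of sites gave no single direction there. The Uhrf1-/- means over the 78 were 3.45% and 3.57% on the plus strand and 5.27% and 5.38% on the minus strand. Over the 13 with both strands at 50% or more in wild type they were 15.8% and 14.9% against 20.2% and 19.96%. Among these 13 the minus strand was higher at 7 and 5 and the plus strand at 5 and 5, on median depths of 10 to 14 reads. In wild type the 13 read 88.0% on the plus and 79.0% on the minus strand in sample 1, but 81.6% and 90.5% in sample 2. A strand difference outside the cluster was thus not established. Whether the strands differ in the cells or in the fragments read was not tested.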

How the data were processed

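Reduced representation bisulfite sequencing reads had been trimmed and aligned by the authors. The submitters' processing notes name cutadapt, Trim Galore, BSMAP 2.73 and the build mm10; their order and settings were not given in the sources used here. For every cytosine site, the table the authors deposited gives for each library whole-number counts of methylated reads and of all reads, with 5 reads or more in each. The methylation fraction of a site is the ratio of these deposited counts. Distances to a transcript start were taken from a score column that the authors deposited (signed bases). Their deposited fractions, p-values, q-values and methylation differences were not used for any result. Reads per library ranged from 257860 to 615917.

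Methylated and unmethylated counts were tested with edgeR 4.0.16 (quasi-likelihood, R 4.3.3) in a fit of all 6 libraries of that table. Each rescue library stood alone in its group, so the spread came from the wild-type and Uhrf1-/- libraries. Features without any methylated or any unmethylated read were not tested. Calls needed a Benjamini-Hochberg adjusted p under 0.05 over all features and 20 points. Sites needed 10 reads in each library, promoters (1 kb) and neighbourhoods (10 kb) 3 such sites, and 1-Mb windows 5 sites. The departure test used methylated reads with the library's reads and mean level as an offset. Descriptions used Python 3.11.15. The procedures were tested on simulated data.

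Listed starts were given a RefSeq gene when within 100 bases of its start, or when inside it. Where the reference gave no strand for a gene, the strand was not compared. Named genes were the 10 largest falls, the 8 highest and 8 lowest kept shares, and the measured list members; extreme windows were chosen after their values were seen. Members and lists were chosen with earlier results of these data known. Alternatives were other coverage minimums, pooled reads, limma 3.58.1, DESeq2 1.42.0, a sample-number block, 4 libraries only, 5-Mb windows and leaving out each library. Subtracting the mitochondrial level, leaving out sites of 500 reads or more and 2 other offsets or filters for the departure test were added after the data were seen.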

Additional observations from a re-analysis of the deposited data

How the results depend on the processing

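The count of sites that fell (1492) was 540 with the sample number as a replicate block, 4278 at 5 reads, 119 at 20 reads, 332 with DESeq2 and 0 to 34 with a library left out. The promoter count (64) was 28 with the block, 382 with any number of sites, and 10 to 62 with a library left out. Neighbourhoods (262) gave 1853 with any number of sites and 205 to 238 with a library left out, and windows (877) gave 409 at 5 Mb and 810 to 871. Same-numbered samples did not deviate together (r = 0.00318 over all sites, 0.0153 at 10 reads or more), so the pairing rests on a shared number only. Departing windows (1) numbered 3 with the 4 libraries alone, 9 with the block, 4 at 5 Mb, 19 with the offset weighted by wild-type level, 4 at 10 reads, 5 with the offset centred on the median window, and 0 to 1 with a library left out.

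The mean difference (-39.6 points) was -35.1 at 10 reads, -37.3 with pooled reads and -40.4 to -38.7 with a library left out. The kept share (19.5%) was 18.6%, 14.7%, 17.9% with the mitochondrial level subtracted, and 19.04% to 19.98%. Far minus near (0.967 points) was 0.176 at 10 reads, 3.12 with the mitochondrial level subtracted, 2.601 and 2.57 for sites at 50% or more in a wild-type library, 6.21, 2.37 and 2.34 within 40 to 60%, 60 to 80% and 80 to 100%, and 0.555 to 1.38 with a library left out. The range over autosomes (3.57 points) was 7.85 at 10 reads, 12.4 with pooled reads and 3.59 to 4.98. The fall in neighbour r at 2 to 10 bases (-0.342) was -0.406 at 10 reads, -0.498 across samples, 0.0423 for pairs at 50% or more (chosen on the wild-type levels compared), and -0.357 to -0.328 with a library left out. The causes were not tested. Of 88 alternatives to 10 results, 47 stayed within the limits set for each, 40 moved beyond them and 1 reversed. Single sites were read at a median depth of 10 to 16 reads, which limits the precision of each.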
